A study of Mus musculus with 4 samples.

Results

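Guanylate-binding proteins (GBPs) and immunity-related GTPases (IRGs) are described here in cells of the mouse left ventricle, as the 10 genes Gbp2, Gbp3, Gbp4, Gbp5, Gbp6, Gbp7, Gbp9, Iigp1, Igtp and Irgm1 of the 31253 genes counted. They were chosen by their symbols after an earlier look at the same libraries, on their higher level in HFpEF than in NC cells. Their difference between the diets is therefore given as a description without a test. RFP+ cells were sorted and sequenced as single cells in 4 libraries, 2 from the NC group (Chow diet) and 2 from the HFpEF group (HFD plus L-NAME, the 2-hit regimen in which a high-fat diet is joined with an inhibitor of nitric oxide synthase to give heart failure with preserved ejection fraction). Per the study's methods all mice carried loxP sites around exon 2 of Scarb1 (Sfl/+ or Sfl/fl) and a tamoxifen-inducible Cre under the Cdh5 promoter. They also carried a Rosa26 reporter that gives red fluorescence once Cre has acted. The sort was thus aimed at cells that expressed Cdh5, or descend from such cells. Cells with markers of mural cells, fibroblasts and leukocytes were also found, and how they came into the sort was not tested. The labels give no genotype, age, duration of the diet or number of mice for a library. The study describes 4 groups of mice by genotype and diet for these cells, so the 2 libraries of a diet may be a knockout and its control. Each standard error over the libraries of a diet would then span both genotypes, and genotype cannot be told apart from other differences between libraries of the same diet. Where the 3′ reads of Scarb1 fall relative to the deleted exon was not checked, and its level was not used here to assign a genotype. The study reports a lower Scarb1 level in capillary endothelial cells of Sfl/fl than of Sfl/+ mice on both diets. The labels do not say whether the libraries of a diet are biological replicates, so the errors speak only for these libraries. Each error comes from a model of the counts (edgeR) that shares information on spread between genes. It therefore also holds counting noise and is not the spread of a gene's own libraries alone. The p values come from the same model and the same 4 libraries, so a very small one does not stand for many replicates.

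GBPs are large GTPases that assemble on the membranes of pathogens and of the vacuoles that hold them, and IRGs are smaller GTPases that act on the same vacuoles. Both families are induced by interferon gamma, and to a varying degree by type I interferons. Promoters of such genes often hold the gamma-activated site (GAS) or the interferon-stimulated response element (ISRE), to which IRF proteins bind. Irgm1 and Igtp (also called Irgm3) belong to the regulatory IRGs that hold effector IRGs such as Iigp1 (also called Irga6) inactive on the membranes of the cell itself. Gbp2 and Gbp5 carry a C-terminal motif for a lipid anchor. Endothelial cells (ECs) respond to both kinds of interferon.

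By GENCODE annotation of GRCm38, the build of the count tables, 4 of the genes lie in a cluster on chromosome 3 in the order Gbp5, Gbp7, Gbp3 and Gbp2, all on the plus strand. Gbp5 spans chr3:142493978-142522344, Gbp7 chr3:142530342-142550149, Gbp3 chr3:142560026-142573209 and Gbp2 chr3:142620602-142638008, all within 144.031 kb. A further 3 lie in a cluster on the minus strand of chromosome 5, Gbp9 at chr5:105077630-105139539, Gbp4 at chr5:105115767-105139586 and Gbp6 at chr5:105270702-105293698. Irgm1 (chr11:48861968-48871683, minus strand) and Igtp (chr11:58199556-58207591, plus strand) lie on chromosome 11. The annotated spans of Gbp9 and Gbp4 overlap on 1 strand, as do those of Igtp and Irgm2. The span of Gbp8 (chr5:105014150-105139540, minus strand) covers that of Gbp9 and overlaps that of Gbp4. By span alone, the split of reads among such genes is uncertain. Counting at the 3′ end can also be uncertain between close copies. Of the 90-base windows in the last 500 bases of the annotated Gbp6 transcripts, 82.5% are also found in transcripts of another gene (Gbp10 or Gm43302), so the counts of Gbp6 are uncertain. The share is 6.08% for Gbp4, 0.375% for Gbp3 and 0 for the other 7 genes.

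Promoter windows from RefSeq (GRCm38.p6, 250 bases before to 50 bases after the start) were used for 6 of the 10 genes. The GAS was searched as TTCNNNGAA, which reads the same on both strands, and the ISRE core as GAAA, any 2 bases and GAAA on both strands, where a match to the minus strand reads TTTC, 2 bases and TTTC. The ISRE core was found in the windows of 6 of these 6 genes and in 3.44% of all 32851 promoter windows, and the GAS in those of 3 genes (Gbp5, Gbp7 and Igtp) and in 8.30% of all windows. The 6 genes had 7 windows, and in 5 of these the 40 bases after the start lie in a GENCODE transcript of the gene. The Gbp5 window lies within the annotated span of Gbp5, so its start is not the outermost one annotated. The 3 windows that hold both motifs are shown. The lines run 5′ to 3′ on the strand of the gene, with matches in capitals and no match of the one motif overlapping the other. Gbp5 is at chr3:142496684-142496983 (plus strand), Gbp7 at chr3:142530086-142530385 (plus strand) and Igtp at chr11:58199306-58199605 (plus strand).
Gbp5: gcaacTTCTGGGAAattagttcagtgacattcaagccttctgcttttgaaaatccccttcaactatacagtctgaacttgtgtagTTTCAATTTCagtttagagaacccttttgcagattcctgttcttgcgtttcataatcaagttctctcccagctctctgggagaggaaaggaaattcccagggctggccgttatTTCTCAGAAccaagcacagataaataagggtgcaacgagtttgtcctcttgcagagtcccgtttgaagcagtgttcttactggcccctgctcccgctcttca
Gbp7: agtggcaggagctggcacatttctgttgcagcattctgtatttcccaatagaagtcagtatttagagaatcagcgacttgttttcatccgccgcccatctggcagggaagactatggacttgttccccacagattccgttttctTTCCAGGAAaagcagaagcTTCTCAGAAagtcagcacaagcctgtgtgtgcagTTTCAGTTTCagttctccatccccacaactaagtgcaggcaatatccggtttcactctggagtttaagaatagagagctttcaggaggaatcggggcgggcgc
Igtp: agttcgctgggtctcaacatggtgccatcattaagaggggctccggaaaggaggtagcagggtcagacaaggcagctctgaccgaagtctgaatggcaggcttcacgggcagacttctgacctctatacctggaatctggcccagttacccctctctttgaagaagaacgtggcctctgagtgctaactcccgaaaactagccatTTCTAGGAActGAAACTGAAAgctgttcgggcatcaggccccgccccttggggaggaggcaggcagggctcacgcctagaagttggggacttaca
In Gbp7 the GAS matches begin at positions -106 and -87 and the ISRE core at -53 from the start. In Gbp2 the only match was the ISRE core TTTCACTTTC at -59, and in Irgm1 the matches GAAATAGAAA at -30 and GAAACCGAAA at -24 overlap each other. These matches are a description of letters, and binding was not measured.

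The libraries held 7465 and 6924 cells in NC and 5769 and 21685 in HFpEF (replicate 1 is given first throughout), with medians of 3644 and 4035.5 UMIs (unique molecular identifiers, that is, counted RNA molecules) per cell in NC and 1699 and 1577 in HFpEF. Cells with over 200 genes and under 20% mitochondrial UMIs were kept. Gates on marker UMIs gave 29693 capillary EC-like, 4821 artery EC-like, 1121 vein EC-like and 1042 mural-like cells, called capillary, artery, vein and mural cells below. Capillary cells are the ECs that passed no other gate, and mural cells, the pericytes and smooth muscle of the vessel wall, still held the EC markers Cdh5 at 560.2 CPM (counts scaled to the same total in each library and class) and Pecam1 at 407 CPM, against 1251 and 714 in capillary cells. Pairs of libraries shared 10 to 42 cell barcodes, at most 0.728% of the smaller library. Depth per cell and the number of cells thus differ between the diets. Values after thinning to equal depth stand beside some of the results. Gates were set on all UMIs before thinning, so the class given to a cell can depend on its depth. The NC libraries held 4993 and 4569 capillary and 1168 and 1082 artery cells. The HFpEF libraries held 4246 and 15885 capillary and 467 and 2104 artery cells. The part of depth in these numbers was not tested. In capillary cells the 4 hemoglobin genes summed to 568 and 495 CPM in NC and to 1126 and 3686 in HFpEF. Summed levels of the 4 B cell markers were 0.401 and 0.741 CPM in NC and 1.51 and 2.05 in HFpEF, and those of the 4 T cell markers were 0 and 0.0494 in NC and 0 and 0.211 in HFpEF. Ptprc, the pan-leukocyte marker, was at 0 because cells with its UMIs were gated out.

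In capillary cells each of the 10 genes had a higher level in both HFpEF libraries than in both NC libraries. The 10 genes together made up 1448 CPM in NC 1, 1902 in NC 2, 2593 in HFpEF 1 and 2297 in HFpEF 2. Iigp1 supplied 51.7% to 60.5% of this sum, and without it the sums were 572, 796, 1176 and 1110.2 CPM. Separation of this kind was frequent, since the HFpEF values both exceeded the NC values for 24.9% of the 12370 genes tested in capillary cells, and it is what the genes were chosen for. The lowest of the 4 values belonged to NC 1 for all 10 genes.

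Among the GBPs of chromosome 3, Gbp2 stood at 76.7 CPM in NC 1, 105 in NC 2, 153 in HFpEF 1 and 127 in HFpEF 2, a log2 fold change of 0.62 ± 0.17 (SE of the edgeR fit, n = 2 libraries per diet, as for all that follow). Gbp3 had 33.8, 49.1, 76.9 and 77.2 CPM in the same order, a log2 fold change of 0.90 ± 0.17. The 2 HFpEF values of Gbp3 were almost equal, and those of Gbp2 differed by less than either did from NC 1. Gbp5, which is known for its part in inflammasome assembly, had 18.5, 30.6, 54.4 and 42.0 CPM and a log2 fold change of 0.95 ± 0.23. Gbp7 had 130.1, 168, 262 and 236 CPM and a log2 fold change of 0.74 ± 0.14. For Gbp5 and Gbp7, HFpEF 1 was the highest library.

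Of the GBPs of chromosome 5, Gbp4 had 37.0, 92.5, 97.9 and 155 CPM, a log2 fold change of 0.98 ± 0.39. Its NC 2 value came close to that of HFpEF 1, and its standard error was the largest of the 10. Gbp6 had 5.07, 6.06, 17.1 and 14.3 CPM, from 101, 123, 134 and 479 UMIs, and the largest log2 fold change of the 10, 1.47 ± 0.17. Gbp9 had 49.4, 62.3, 82.2 and 74.5 CPM and a log2 fold change of 0.49 ± 0.13. Apart from Gbp4, the gap between the diets in these genes was wider than that between HFpEF 1 and HFpEF 2.

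Among the IRGs, the effector Iigp1 had 875, 1106, 1417 and 1187 CPM and the smallest log2 fold change of the 10, 0.39 ± 0.15. Its values in NC 2 and HFpEF 2 lay side by side. Igtp had 97.3, 106, 164 and 169 CPM, a log2 fold change of 0.71 ± 0.10 with the smallest standard error of the 10. Irgm1, the other regulatory IRG, had 124, 176, 269 and 215 CPM and a log2 fold change of 0.68 ± 0.18.

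**Figure D1:**
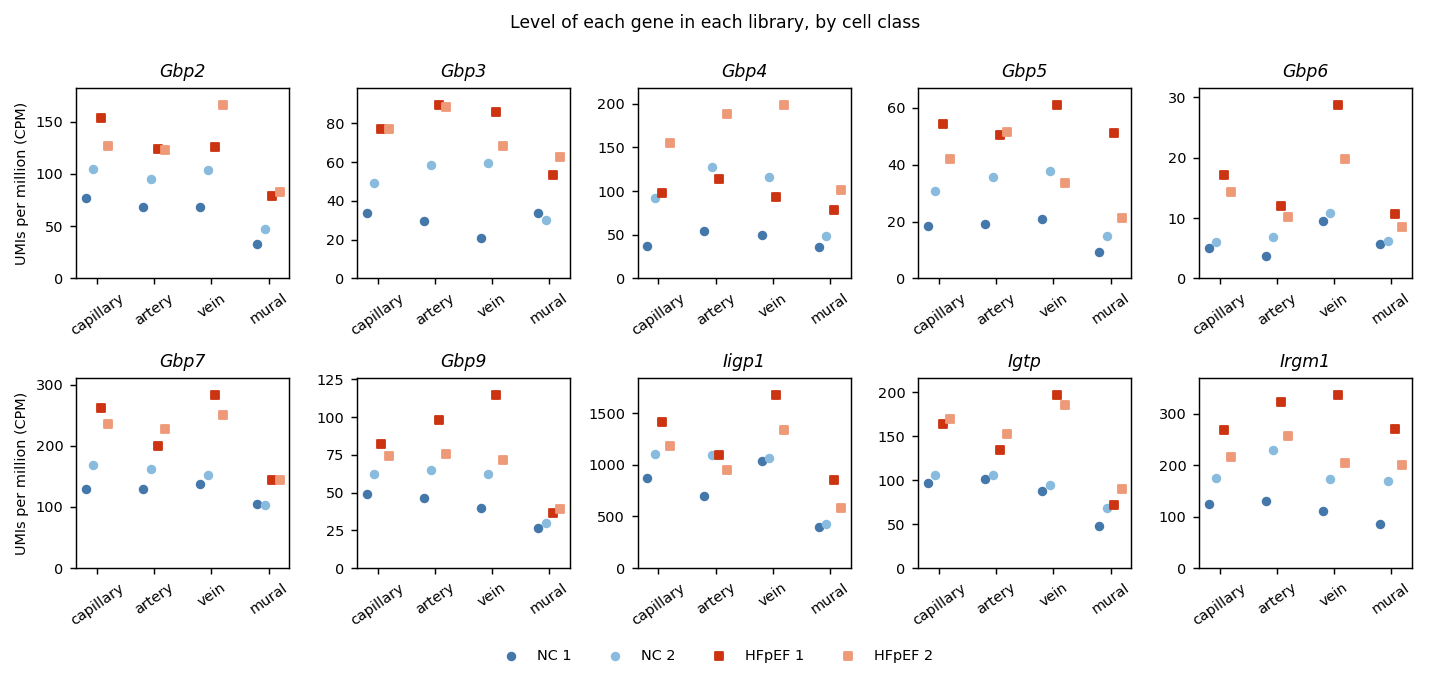
Level of each of the 10 genes in CPM (vertical axis, from 0, scaled per gene) in capillary, artery, vein and mural cells, with 1 point for each library (circles NC, squares HFpEF). In capillary cells both squares lie above both circles for each gene, and in artery cells the squares and circles of Gbp4 and Iigp1 overlap.

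The median log2 fold change of the 10 genes in capillary cells was 0.73, against -0.01 over all genes tested. It was 0.74 with each cell thinned to 1000 UMIs and 0.72 without cells with 1% or more hemoglobin UMIs. It was 0.72 without cells that held a UMI of Ifit1, Ifit2 or Ifit3 after thinning to 1000 UMIs and without cells under 1000 UMIs. Cells that held such a UMI only before thinning stayed in that set. The median was 0.51 without NC 1 and 0.95 without NC 2, so the choice of NC library moved it more than the filters did. The part of the higher B cell marker level in these values was not tested. Of the B cell markers Cd79a was the only one with UMIs in NC 1 and in HFpEF 1, and Cd79b, Ms4a1 and Ly6d were at 0 there, as were all 4 T cell markers. The 4 cardiomyocyte markers also differed between libraries, with 38.4 and 25.1 CPM in NC and 101 and 37.0 in HFpEF, HFpEF 1 standing above the rest. Their part in these values was not tested either.

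In artery cells 8 of the 10 genes had HFpEF libraries that both exceeded the NC libraries, where 22.1% of all 10814 genes tested did so, and a median log2 fold change of 0.64. The 2 exceptions were Gbp4, with 54.8 and 128 CPM in NC and 114 and 188 in HFpEF, and Iigp1, with 699 and 1098 CPM in NC and 1092 and 949.9 in HFpEF. For Iigp1 the log2 fold change in artery cells was 0.18 ± 0.18, and without NC 1 it was -0.11. Gbp3 had the largest log2 fold change in artery cells, 1.01 ± 0.24, from 29.8 and 58.3 CPM in NC and 89.2 and 88.3 in HFpEF. Of the same cluster on chromosome 3, Gbp5 had 19.0 and 35.8 CPM in NC and 50.6 and 51.5 in HFpEF (0.90 ± 0.23). Gbp2 had 67.9 and 94.8 against 124 and 123 (0.60 ± 0.16). Gbp5 and Gbp2 likewise had 2 nearly equal HFpEF values in artery cells. Gbp7 had 129.9 and 162 CPM in NC and 199.9 and 227 in HFpEF (0.56 ± 0.14). Of the chromosome 5 genes, Gbp9 had 46.5 and 64.9 CPM in NC and 97.8 and 75.7 in HFpEF (0.60 ± 0.18), and Gbp6 had a log2 fold change of 1.00 ± 0.34 from the lowest levels of the 10 genes. The regulatory IRGs differed in how far NC 1 and NC 2 lay apart in artery cells. Igtp had 102 and 106 CPM in NC and 134 and 153 in HFpEF (0.48 ± 0.13), whereas Irgm1 had 131 and 229 CPM in NC and 324 and 258 in HFpEF (0.67 ± 0.21). Without NC 1 the median of the 10 genes in artery cells was 0.40, and without NC 2 it was 1.00.

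In vein cells the same count was 8 of 10, beside 19.3% of all 8352 genes tested, with a median log2 fold change of 0.86. Igtp had 87.3 and 94.9 CPM in NC and 197 and 186 in HFpEF, so that its 2 libraries within a diet lay close together and the diets far apart (log2 fold change 1.06 ± 0.20). Gbp6 had a log2 fold change of 1.09 ± 0.42, with 8 UMIs behind its 28.6 CPM in HFpEF 1. The exceptions were Gbp4, whose HFpEF 1 value of 93.1 CPM lay below the 117 of NC 2, and Gbp5, whose HFpEF 2 value of 33.6 CPM lay below the 37.8 of NC 2. Among the IRGs the effector Iigp1 had 1033 and 1065 CPM in NC and 1676 and 1333 in HFpEF vein cells (0.51 ± 0.18), so that, unlike in artery cells, its diets did not overlap. Irgm1 had 111 and 174 CPM in NC and 337 and 205 in HFpEF (0.85 ± 0.23), with NC 2 and HFpEF 2 closer to each other than either was to the other library of its diet. Of the chromosome 3 genes, Gbp7 had 137 and 152 CPM in NC and 283 and 249.5 in HFpEF (0.86 ± 0.19), Gbp2 had 68.3 and 104 against 125 and 166 (0.84 ± 0.22), and Gbp3 had 20.7 and 59.3 against 85.9 and 68.4 (0.92 ± 0.32). Gbp9 had 39.7 and 62.6 CPM in NC and 115 and 71.4 in HFpEF (0.72 ± 0.26). HFpEF 1 was the highest library in vein cells for 8 of the 10 genes. Without NC 1 the median in vein cells was 0.51.

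In mural cells the count was again 10 of 10, beside 19.1% of all 9264 genes tested, with a median log2 fold change of 0.80. The 7 EC markers summed to 2395 and 2416 CPM in NC mural cells and to 2146 and 2508 in HFpEF. In capillary cells they summed to 5599 and 6556 CPM in NC and to 5857 and 6317 in HFpEF. The part of EC RNA in the mural values was not tested. Gbp5 had 9.43 and 15.0 CPM in NC and 51.1 and 21.3 in HFpEF, the largest log2 fold change in mural cells (1.27 ± 0.41), and its 2 HFpEF libraries differed more from each other than HFpEF 2 did from NC. Iigp1 had 399 and 426 CPM in NC and 849 and 585 in HFpEF (0.78 ± 0.17). Gbp4, whose libraries overlapped in artery and vein cells, had 35.8 and 48.7 CPM in NC and 78.7 and 102 in HFpEF mural cells (1.11 ± 0.23). Gbp2 had 33.0 and 47.4 CPM in NC and 78.7 and 83.1 in HFpEF (0.99 ± 0.23), and Gbp3 33.9 and 30.0 against 53.2 and 62.5 (0.90 ± 0.24). The differences of Gbp7, with 105 and 104 CPM in NC and 145 and 144 in HFpEF (0.47 ± 0.18), and of Gbp9, with 26.4 and 30.0 against 36.2 and 39.1 (0.42 ± 0.26), were smaller. For Gbp7 the libraries within a diet were almost equal. Igtp had 48.1 and 68.0 CPM in NC and 72.3 and 90.2 in HFpEF (0.50 ± 0.22), and Irgm1 84.8 and 169 against 270.2 and 200.4 (0.82 ± 0.24). Gbp6 had 5.66 and 6.24 CPM in NC and 10.6 and 8.53 in HFpEF (0.59 ± 0.53), and rested on 5 UMIs in HFpEF 1 and 6 in NC 1. In mural cells the 4 hemoglobin genes summed to 0 and 11.9 CPM in NC and to 2.06 and 103 in HFpEF, far below the levels in capillary cells. The 4 cardiomyocyte markers were higher in HFpEF mural cells, at 21.6 and 23.8 CPM in NC and 65.8 and 41.4 in HFpEF, and in artery and vein cells they were highest in HFpEF 1, at 57.5 and 72.5 CPM against at most 25.4. Their part in the result was not tested. The median of the 10 genes without NC 1 was 0.64 and without HFpEF 1 it was 0.62. Taken over the 4 classes, the log2 fold changes lay between 0.18 and 1.47, and 36 of the 40 had libraries that did not overlap. Of all genes tested, 19.1% (mural) to 24.9% (capillary) separated with HFpEF above in a class. The 4 classes come from the same 4 libraries and the genes were chosen on this contrast, so the 40 values are not independent.

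**Figure D2:**
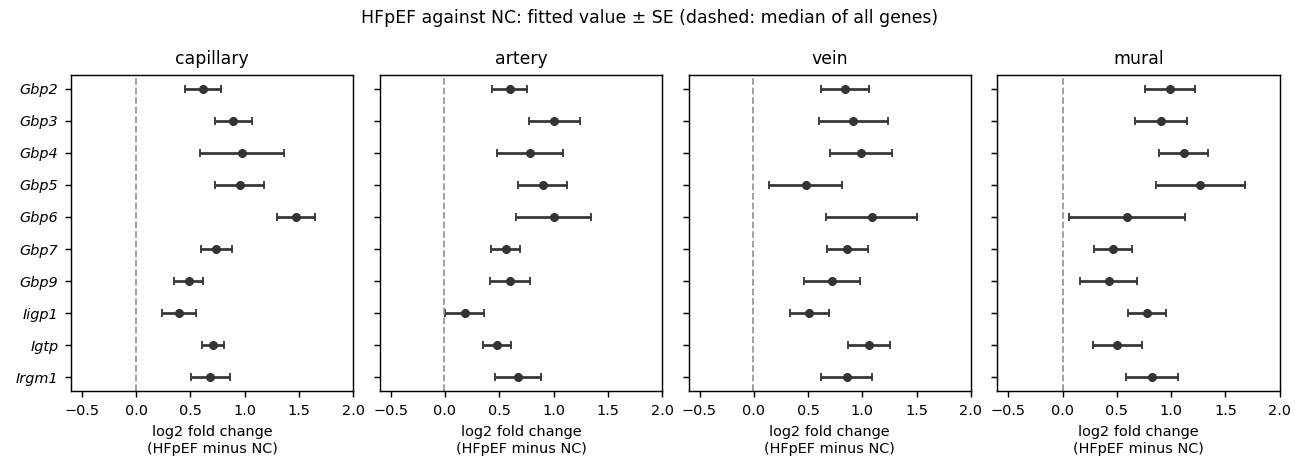
Log2 fold change of HFpEF over NC (horizontal axis) for the 10 genes in each of the 4 classes, with bars of 1 SE from the edgeR fit and a dashed line at the median of all genes. All 40 points lie to the right of the dashed line, Iigp1 in artery cells being the lowest at 0.18.

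To see in how many cells the genes were found, each cell was thinned to 1000 UMIs and shallower cells were left out. This kept 4719 of 4993 and 4354 of 4569 capillary cells in NC, and 3513 of 4246 and 11790 of 15885 in HFpEF. A UMI of at least 1 of the 10 genes was then present in 56.6% (NC 1) and 66.3% (NC 2) of capillary cells on the Chow diet, and in 75.3% (HFpEF 1) and 75.0% (HFpEF 2) of those from HFpEF mice. At least 3 of the 10 genes were present in 5.55% and 10.6% of NC cells and in 18.9% and 16.8% of HFpEF cells. For Iigp1 the shares were 34.8% and 43.4% in NC and 50.9% and 47.5% in HFpEF, and for Irgm1 they were 10.1% and 14.2% against 20.1% and 18%. The exact 95% intervals of the Iigp1 shares, which cover counting error only, ran from 33.4% to 36.2% in NC 1, 41.9% to 44.9% in NC 2, 49.3% to 52.6% in HFpEF 1 and 46.6% to 48.4% in HFpEF 2. Without thinning the same cells gave Iigp1 shares of 55.1% and 67.3% in NC and 63.0% and 62.0% in HFpEF, with NC 2 the highest, and in these cells the NC libraries held more UMIs per cell. For Gbp6 all 4 shares were under 1.5%. In the same thinned cells the 10 genes gave 1.37 and 1.84 UMIs per capillary cell in NC and 2.46 and 2.27 in HFpEF. In mural cells they gave 0.625 and 0.924 UMIs per cell in NC and 1.69 and 1.26 in HFpEF. In capillary cells the thinned shares of 9 of the 10 genes were higher in both HFpEF libraries than in both NC libraries. The exception was Gbp4, with 3.81% and 8.84% in NC and 7.83% and 12.9% in HFpEF. The genes were chosen on this contrast, and how many of all genes separated by thinned shares was not counted. By level, 24.9% of all genes tested in capillary cells separated in this way. Free RNA in the droplets can give UMIs to cells that do not express a gene, and no class measured here is known to lack these genes, so its part was not tested.

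Outside the 4 main classes the 10 genes were also counted, in gates of few cells. Summed over the libraries of a diet, they made up 1292 CPM in 41 B cell-like cells of NC and 1216 CPM in 88 of HFpEF. The sums were 898 and 1040.5 CPM in 18 and 49 T cell-like cells, and 628 and 1211 CPM in 32 and 98 myeloid-like cells. Fibroblast-like cells had 728 CPM in NC (31 cells) and 632 CPM in HFpEF (88 cells), lymphatic EC-like cells 732 CPM (29 cells) and 968 CPM (66 cells), and proliferating cells 1083 CPM (41 cells) and 1306 CPM (53 cells). Endocardial-like cells had 1833 CPM in NC from 13 cells and 1242 CPM in HFpEF from 18 cells. These gates were pooled to a single value per diet and were not tested. In B cell-like, fibroblast-like and endocardial-like cells the HFpEF sum was below the NC sum, but not every gene was. In B cell-like cells Iigp1 (905 CPM in NC and 657 in HFpEF) and Gbp5 were lower, and the other genes higher. In fibroblast-like cells Iigp1 (403 and 255), Gbp3 and Gbp5 were lower, and the others higher. In endocardial-like cells Iigp1 (944 and 500), Gbp2, Gbp9, Igtp and Irgm1 were lower, and the others higher. The libraries of a diet differed, and HFpEF 2 held 68 of the 88 B cell-like cells. By library, Iigp1 had 772 and 949 CPM in NC and 1224 and 520 in HFpEF B cell-like cells. In endocardial-like cells it had 1946 and 490 against 2352 and 239, and in fibroblast-like cells 291 and 477 against 274 and 252.

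The levels of the genes between classes were not used to choose them and were tested within libraries. Capillary and mural cells differed most. With edgeR's quasi-likelihood test, the library as a block and Benjamini-Hochberg adjustment over all 10372 genes tested, 9 of the 10 genes were higher in capillary than in mural cells, beside 22.3% of all genes that were higher and 28.1% that were lower. Iigp1 had a mean of 1199 CPM in capillary and 547 in mural cells, a ratio of 2.27 (log2 ratio 1.18 ± 0.09, adjusted p = 1.7e-12 from edgeR, higher in 4 of 4 libraries). Gbp9 (a ratio of 2.15), Gbp2 (log2 ratio 1.05 ± 0.10) and Igtp (0.99 ± 0.10) followed, and the smallest called log2 ratio was that of Irgm1, at 0.26 ± 0.08 (205 and 175 CPM, edgeR adjusted p = 0.00506). Gbp6 had a log2 ratio of 0.49 ± 0.24 (edgeR adjusted p = 0.0921). With cells thinned to 1000 UMIs, 8 genes were called, Irgm1 was not (log2 ratio 0.15), and Gbp6 was too low to be tested. Mural cells held EC markers at the levels given above, and the part of EC RNA in these ratios was not tested.

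Between capillary and artery cells the genes went in different directions. Iigp1 (log2 ratio 0.32 ± 0.08, edgeR adjusted p = 0.00254), Gbp2 (0.23 ± 0.07), Gbp6 (0.39 ± 0.14) and Gbp7 (0.17 ± 0.06) were higher in capillary cells, 4 of 10 beside 14.5% of all genes. Gbp4 (-0.32 ± 0.07, edgeR adjusted p = 0.000957) and Irgm1 (-0.18 ± 0.06, edgeR adjusted p = 0.0276) were lower in capillary cells, 2 of 10 beside 14.8% of all genes. Gbp4 was lower in 4 of 4 libraries, with means of 99.9 CPM in capillary and 121 in artery cells, and Iigp1 was higher in 4 of 4, with 1199 and 954. The calls of Gbp4 and Iigp1 held without any 1 library. That of Gbp2 (0.0134 with all libraries) was lost without NC 1 (log2 ratio 0.23) or HFpEF 1 (0.19), that of Gbp6 without NC 1 (0.38), HFpEF 1 (0.36) or HFpEF 2 (0.27), that of Gbp7 without NC 2 (0.19), HFpEF 1 (0.11) or HFpEF 2 (0.20), and that of Irgm1 without NC 2 (-0.13), HFpEF 1 (-0.17) or HFpEF 2 (-0.17).

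Capillary and vein cells could hardly be told apart by these genes. Only Gbp6 was called, lower in capillary cells by the log2 ratio -0.58 ± 0.20 (11.1 and 16.9 CPM, edgeR adjusted p = 0.0452, lower in 4 of 4 libraries), beside 10.5% of all genes that were lower and 8.72% that were higher. This call was lost without any 1 of the 4 libraries (log2 ratios of -0.74 to -0.51), and the counts of Gbp6 are uncertain for the reason given above. The log2 ratios of the other 9 genes lay between -0.25 and 0.20. From these tests the order of levels was mural below capillary for 9 genes. Between capillary and vein cells 9 genes were not called, among them Gbp4 at -0.25 ± 0.10 (edgeR adjusted p = 0.0705). A missing call does not show that the levels were equal.

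**Figure D3:**
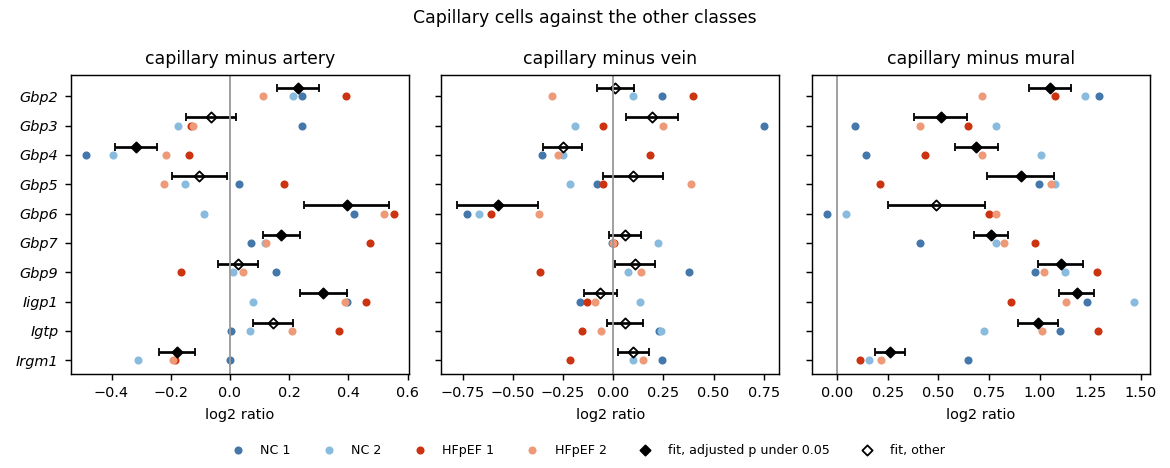
Log2 ratio of capillary cells over artery, vein and mural cells (horizontal axis, 1 panel per class with its own scale) for the 10 genes, with coloured points for the 4 libraries and diamonds with bars of 1 SE for the edgeR fit, filled where the adjusted p was under 0.05. Against mural cells 9 diamonds are filled and lie to the right of 0, against artery cells 6 are filled on both sides of 0, and against vein cells only Gbp6 is filled, at -0.58.

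Within capillary cells the genes were compared between cells with and without a UMI of the interferon-induced Ifit1, Ifit2 or Ifit3, genes for RNA-binding antiviral proteins, after thinning to 1000 UMIs. Such a UMI was present in 6.97% (NC 1), 11.3% (NC 2), 11.6% (HFpEF 1) and 12.6% (HFpEF 2) of the cells, and without thinning in 19.3% and 28.2% against 19.3% and 21.7% of the same cells. All 10 genes were higher in the cells with an Ifit UMI, beside 1.63% of the 9952 genes tested. Gbp3 had 112 and 113 CPM in the cells with a UMI in NC and 149 and 144 in HFpEF, against 29.8 and 36.8 and against 67.0 and 65.1 in the cells without (log2 ratio 1.30 ± 0.11, edgeR adjusted p = 4.9e-15). The 2 kinds of cells did not overlap over the 4 libraries. Gbp6 had the largest log2 ratio (1.39 ± 0.25), with 0.54 to 2.16 over the libraries, from 12.1 to 29.5 CPM in the cells with a UMI. Its counts are uncertain for the reason given above. Gbp2 (1.05 ± 0.08), Gbp7 (1.01 ± 0.07) and Gbp5 (0.93 ± 0.13) came after Gbp3. The smallest log2 ratio was that of Iigp1 (0.69 ± 0.04, edgeR adjusted p = 6.49e-22). Each gene was higher in 4 of 4 libraries. Without HFpEF 2 the call of Gbp6 was lost (log2 ratio 1.31).

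Capillary cells with a UMI of Cxcl9 or Cxcl10, chemokines that interferon gamma induces and that attract CXCR3+ T cells, made up 10.3% and 12.8% of thinned NC cells and 16.6% and 18.5% of thinned HFpEF cells, and without thinning 25.7% and 30.7% against 26.1% and 28.8% of the same cells. Of the 10 genes 9 were higher in them, beside 4.93% of the 10130 genes tested. Gbp6, whose counts are uncertain, had the largest log2 ratio (0.94 ± 0.24, edgeR adjusted p = 0.002), with 0.39 to 1.11 over the libraries. Iigp1 (0.73 ± 0.04, edgeR adjusted p = 2.31e-83), Gbp2 (0.73 ± 0.07), Gbp3 (0.71 ± 0.10), Irgm1 (0.68 ± 0.06) and Igtp (0.66 ± 0.07) followed. Gbp7 (0.30 ± 0.07) and Gbp4 (0.39 ± 0.08) had the smallest called ones. Gbp9 had a log2 ratio of 0.27 ± 0.10 (edgeR adjusted p = 0.0722) and was higher in 3 of 4 libraries. Without NC 2 it was called too, and without HFpEF 2 the calls of Gbp6 (0.90) and Gbp7 (0.27) were lost. The cells of both splits were chosen by UMIs of genes that respond to interferon, so the splits describe which cells hold these transcripts together. Whether the gap between the 2 splits differed for a gene was not tested.

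**Figure D4:**
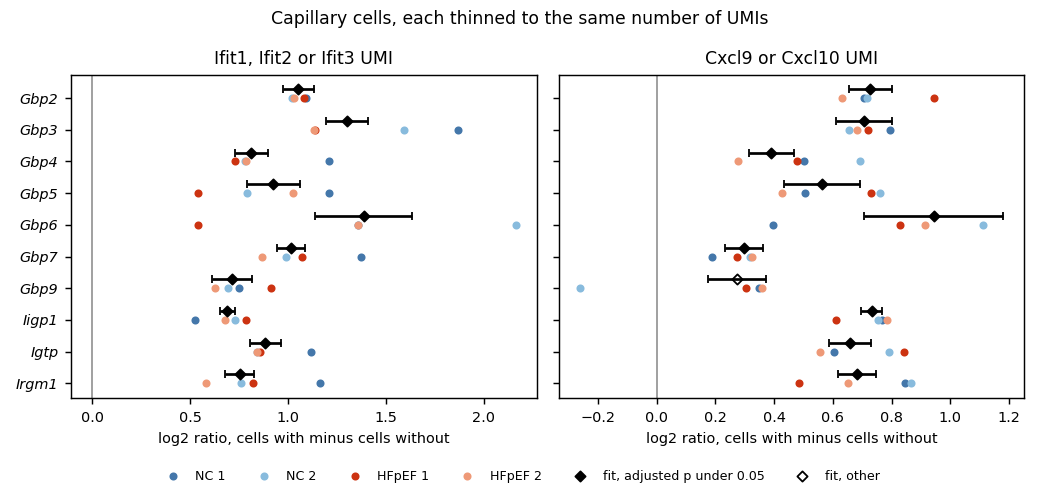
Log2 ratio of capillary cells with over cells without an Ifit1, Ifit2 or Ifit3 UMI (left) and a Cxcl9 or Cxcl10 UMI (right), all thinned to 1000 UMIs, with coloured points for the 4 libraries and diamonds with bars of 1 SE for the edgeR fit, filled where the adjusted p was under 0.05. All 10 diamonds are filled on the left, between 0.69 and 1.39, and 9 of 10 on the right, Gbp9 being open at 0.27.

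The rest of the pathway was followed through lists that hold none of the 10 genes and were tested for HFpEF against NC in each class. With edgeR's quasi-likelihood test and adjustment over all genes, calls were few. In capillary cells 0.0808% of all genes tested were called in either direction, in artery cells 0.407%, in vein cells 0.682% and in mural cells 0.151%. Of the genes on these lists 2 of 96 tested were called in capillary cells, 1 of 93 in artery cells, 6 of 85 in vein cells and 2 of 83 in mural cells, all of them higher in HFpEF. In capillary cells the HFpEF libraries lay both above the NC libraries for 59 of the 96 and both below for 9. Of all genes tested, 24.9% had both above and 25.8% both below.

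Of the other GBP and IRG genes, 15 of 19 listed were tested in capillary cells and 0 were called in any class by edgeR, while 11 of the 15 in capillary cells had an unadjusted p under 0.05, as did 18.7% of all genes tested in capillary cells. Their median log2 fold change in capillary cells was 0.93, and in 12 of 15 the libraries separated with HFpEF above, beside 24.9% of all genes. Ifi47 (Irgd) had 32.6 and 43.4 CPM in NC and 83.0 and 75.4 in HFpEF (1.05 ± 0.15, edgeR adjusted p = 0.0664). Gvin1, of the very large GTPases that interferon induces, had 6.78 and 8.72 CPM in NC and 22.1 and 15.9 in HFpEF (1.26 ± 0.20). Gm4070 (1.15 ± 0.26), Tgtp1 (1.08 ± 0.22), Tgtp2 (0.99 ± 0.26), Gm4951 (0.93 ± 0.27), Irgm2 (0.50 ± 0.15) and 9930111J21Rik2 (0.32 ± 0.11) also separated in this way in capillary cells. F830016B08Rik (0.64 ± 0.35) had overlapping libraries. Gvin1 shares all of its 3′ windows with Gm4070, Tgtp1 and Tgtp2 share 74.0% and 65.9% of theirs with each other or Gm12185, and 9930111J21Rik2 shares 59.4% with its neighbours, so these counts are uncertain.

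For the ligands, 0 of 6 were tested in any class. Ifng, the gene of interferon gamma, gave 12 and 1 UMIs in all kept cells of NC and 18 and 74 in those of HFpEF, found in 2, 1, 1 and 9 cells, of which 8 of the 9 in HFpEF 2 were T cell-like. Ifnb1 gave 0 UMIs in every library. As the sort kept RFP+ cells, the cells that make these ligands in the heart were for the most part not sampled.

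In the list of interferon gamma signalling 13 of 13 genes were tested in capillary cells, 0 were called by edgeR, 6 had an unadjusted p under 0.05 with a higher and 1 with a lower level in HFpEF, and the median log2 fold change was 0.34. The receptor subunit Ifngr1 had 278 and 274 CPM in NC and 212 and 213 in HFpEF (-0.38 ± 0.10, edgeR adjusted p = 0.134), so both HFpEF libraries lay below. Irf1, a transcription factor that interferon gamma induces, had 382 and 442 CPM in NC and 459 and 542 in HFpEF (0.28 ± 0.13), and Nlrc5, the activator of MHC class I genes, had a log2 fold change of 0.71 ± 0.16. Ptpn2, a phosphatase that acts on the pathway, had 0.42 ± 0.14. In capillary cells HFpEF was above NC in both libraries for each of these but Ifngr1. In artery, vein and mural cells the libraries of Irf1 overlapped, with log2 fold changes of 0.12 ± 0.16, 0.0005 ± 0.17 and 0.06 ± 0.19. Those of Ptpn2 overlapped in artery and vein cells and those of Nlrc5 in vein cells. Ptpn2 in mural cells and Nlrc5 in artery cells separated with HFpEF above.

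Of the interferon gamma targets 22 of 23 listed were tested in capillary cells, 2 were called and the median log2 fold change was 0.45. Cd74, the invariant chain of MHC class II, had 2.16 and 4.09 CPM in NC and 17.0 and 18.6 in HFpEF (2.51 ± 0.26, edgeR adjusted p = 0.0397), and H2-Aa, an MHC class II chain, had 2.06 and 1.67 CPM in NC and 7.27 and 10.8 in HFpEF (2.32 ± 0.26, edgeR adjusted p = 0.0397). The call of H2-Aa was lost without NC 1. Both calls were lost without cells that held an Ifit UMI after thinning and without cells under 1000 UMIs. The edgeR adjusted p was then 0.0558 for H2-Aa and 0.0695 for Cd74. In that set 1 of all 12211 genes tested was called, against 10 of 12370 with all capillary cells. B cells and myeloid cells express both genes strongly, the 4 B cell markers had the levels given above, and the 7 myeloid markers summed to 1.05 and 3.61 CPM in NC and 3.27 and 4.46 in HFpEF, with Adgre1 at 0 in all 4 libraries. The part of such cells in the result was not tested. Serpina3g (1.54 ± 0.34) and H2-Ab1 (1.21 ± 0.16) had the largest log2 fold changes of those not called with a mean of at least 10 CPM. Cxcl10 stood at 77.5 and 111 CPM in NC and 173 and 204 in HFpEF (1.00 ± 0.18, edgeR adjusted p = 0.0892), and Cxcl9 had 125 and 137 CPM in NC and 208 and 165 in HFpEF (0.51 ± 0.13, edgeR adjusted p = 0.134). In vein cells Cd74 (1.76 ± 0.26), H2-Aa (1.77 ± 0.24), H2-Ab1 (1.54 ± 0.23), H2-Eb1 (1.34 ± 0.25), Cxcl9 (1.39 ± 0.24) and Cxcl10 (1.19 ± 0.22) were called, with edgeR adjusted p values of 0.000339 to 0.00557. Without NC 1 or without NC 2 no gene of any kind was called in vein cells. The loss of these calls there is therefore not particular to these genes. Of Cd74 vein cells held 167 and 86.3 CPM in NC and 584 and 324 in HFpEF, while the 4 B cell markers summed to 0 and 1.07 CPM in NC and 3.45 and 3.00 in HFpEF, from at most 5 UMIs in a library, and the 7 myeloid markers to 0 and 1.07 against 3.45 and 1.20. In mural cells B2m (0.75 ± 0.15) was called, and in artery cells Serpina3g (2.84 ± 0.52). Without NC 1 or without NC 2 no gene of any kind was called in mural cells, B2m included. The call of Serpina3g was lost without HFpEF 2.

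Of 7 type I interferon signalling genes tested in capillary cells 0 were called by edgeR (1 with an unadjusted p under 0.05) and the median log2 fold change was 0.10, with Irf9 at 0.37 ± 0.11, Tyk2 at -0.22 ± 0.13 and Stat2 at 0.22 ± 0.11. Of 20 type I targets tested 0 were called by edgeR (6 with an unadjusted p under 0.05, all higher) and the median was 0.22. Ifit3 had 35.9 and 60.0 CPM in NC and 49.3 and 50.8 in HFpEF (0.06 ± 0.21), with overlapping libraries, while Zbp1 (0.91 ± 0.29), Ifi44 (0.63 ± 0.16) and Ifit2 (0.62 ± 0.25) separated with HFpEF above. In mural cells the median of the type I targets was 0.65, and Cmpk2, with 19.8 and 18.1 CPM in NC and 51.1 and 47.6 in HFpEF, was called (1.37 ± 0.27, edgeR adjusted p = 0.0456). Without NC 1 or without NC 2 that call was lost, as was every other call in mural cells. Of the genes for partners of the proteins, such as caspases and autophagy factors, 19 were tested in capillary cells and 0 were called by edgeR (4 higher and 1 lower with an unadjusted p under 0.05), with a median of 0.04. Casp4, the caspase that senses lipopolysaccharide, had 30.7 and 29.7 CPM in NC and 45.8 and 42.6 in HFpEF (0.54 ± 0.10, edgeR adjusted p = 0.0892). Casp1 was at 0.46 ± 0.19 and Rce1, a protease that processes prenylated proteins, at -0.37 ± 0.10. The median of 0.04 was close to that of all genes, and the medians of the interferon lists were above it, but no difference between lists was tested. The counts at an unadjusted p under 0.05 in these lists are likewise to be read beside the 18.7% of all genes.

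**Figure D5:**
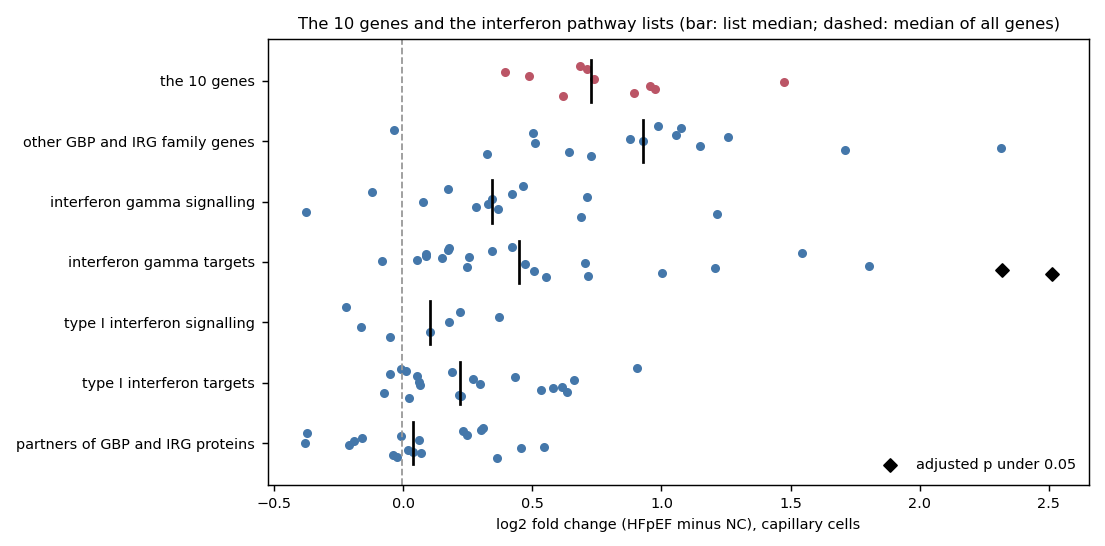
Log2 fold change of HFpEF over NC in capillary cells (horizontal axis) for the 10 genes, which were chosen on this contrast, and for the genes of each pathway list, with a bar at the median of the list, black diamonds for genes called by edgeR and a dashed line at the median of all genes. The medians are 0.73 for the 10 genes, 0.93 for the other GBP and IRG genes and 0.04 for the partners, and the only diamonds are H2-Aa and Cd74.

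Over the 16 sums of 4 libraries and 4 classes, the level of each of the 10 genes followed the mean of the other 9 with a Pearson r of 0.77 (Gbp6) to 0.95 (Gbp7), on the log2 CPM scale. Among 8128 other genes with a mean of at least 10 CPM, those most like the mean of the 10 were the MHC class I genes H2-Q6 (r = 0.98), H2-Q7 (0.97) and H2-Q4 (0.93), with Gm4070 (0.95), Ifi203 (0.93), Cd274 (0.93), the gene of PD-L1, Rtp4 (0.93) and Dtx3l (0.92). The sums share libraries, and all 16 carry both the diet contrast on which the genes were chosen and the differences between classes, so these values are a description.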

How the data were processed

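The 4 libraries were made with 10x Genomics 3′ v3 reagents from sorted RFP+ left ventricular cells. Per the labels and methods the authors trimmed reads with fastp, counted UMIs on mm10 with Cell Ranger 5.0.1 and Ensembl genes, reduced reads to an even depth between samples and aggregated them. The values used are the deposited counts, raw UMI counts per gene and cell. Equalising reads leaves UMIs per cell unequal, so shares of cells were taken after thinning.

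The genes, the lists and the comparisons were chosen with earlier results of these data known. All 10 genes are described. Other GBP and IRG genes with a mean of at least 10 CPM in capillary cells are named. Of the other lists, the genes called, the 3 with the largest absolute log2 fold change in capillary cells at 10 CPM or more, and Irf1, Cxcl9, Cxcl10, Ifngr1, Ifit3 and Ifng are named, with the 8 genes most alike. Gbp11, Gm12250, Cxcl11, Mx1 and Mx2 were not analysed here. The values of 1 further gene of the rule are not reported here.

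Cells with over 200 genes and under 20% mitochondrial UMIs were gated. ECs needed UMIs of at least 2 different EC marker genes. Artery cells needed UMIs of 3 artery marker genes and 1000 CPM of these markers, and vein cells 2 genes and 750.0 CPM. Mural cells needed 3 marker genes and a ratio of 2 between the UMIs of mural and EC markers. Cells with UMIs of 2 marker genes of B, T or myeloid cells, platelets, fibroblasts, mural, endocardial or proliferating cells were set apart. So were cells with 3 lymphatic marker genes or with a Ptprc UMI. Cardiomyocyte and hemoglobin genes set no gate, and ECs under the artery and vein thresholds counted as capillary. In capillary cells the 9 artery markers summed to 429 and 399 CPM in NC and to 441 and 465 in HFpEF. No doublet caller was run, and 1386 cells stayed without a class. Counts were summed per library and class and fitted with edgeR 4.0.16 in R 4.3.3 (glmQLFit, glmQLFTest, TMM, filterByExpr, Benjamini-Hochberg, a call at an adjusted p under 0.05). CPM are scaled by TMM within a fit. Diet was the only term between diets, and the library was a block between classes and splits. Ratios per library added 1 CPM. The fits were tested on simulated data. Python 3.11.15 with numpy 2.4.6, pandas 2.3.3, scipy 1.17.1 and matplotlib 3.10.9 was used. Of 31253 gene IDs, 31184 were found in GENCODE vM21. Alternatives were DESeq2 1.42.0, no count filter, no hemoglobin-rich cells, no mitochondrial genes and stricter gates. Others were thinning to 1000 or 2000 UMIs, a replicate block and leaving out each library. A further alternative left out capillary cells with an Ifit UMI after thinning to 1000 UMIs together with those under 1000 UMIs.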

Additional observations from a re-analysis of the deposited data

Results flagged for a closer look

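For each of the 10 genes and each comparison between classes or splits, the log2 ratio was looked at in the 4 libraries, 50 sets of 4 values in all. In 7 of them the gap of 1 library to its nearest neighbour, over the whole range, passed Dixon's 95% critical value, and chance passes about 1 in 20. For capillary over artery cells these were Gbp3, at 0.24 in NC 1 beside -0.18 to -0.13 in the others, and Gbp7, at 0.47 in HFpEF 1 beside 0.07 to 0.12. For capillary over vein cells it was Gbp7, at 0.22 in NC 2 beside -0.004 to 0.002. For capillary over mural cells it was Gbp5, at 0.21 in HFpEF 1 beside 1.00 to 1.08. With over without an Ifit UMI, Gbp4 stood at 1.21 in NC 1 beside 0.73 to 0.78, and Igtp at 1.12 in NC 1 beside 0.84 to 0.86. With over without a Cxcl9 or Cxcl10 UMI, Gbp9 stood at -0.26 in NC 2 beside 0.31 to 0.36. In addition, Igtp was higher in capillary than in vein cells in both NC libraries (mean log2 ratio 0.23) and lower in both HFpEF libraries (-0.11), a difference of -0.34 that was not tested.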

How the results depend on the processing

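The median log2 fold change of the 10 genes kept its sign in every class under each alternative, also with the replicate block (0.73, 0.65, 0.83 and 0.80 in capillary, artery, vein and mural cells). Leaving out each library gave 0.51 to 0.95, 0.40 to 1.00, 0.51 to 1.12 and 0.62 to 0.84. Of 439 values for single genes between diets under an alternative, 2 changed sign, both of Iigp1: -0.11 in artery cells without NC 1 (-0.11 to 0.55 without each library) and -0.39 in vein cells with stricter gates. The number of called list genes depended on the setting, and the cause was not tested. In capillary cells it was 2, and 13 with DESeq2, 35 without a count filter, 11 with the replicate block, 1 with stricter gates, 9 with thinning and 1 to 18 without each library. In artery cells it was 1, and 0, 22, 7, 2, 2 and 2 to 17 in the same order. In vein cells it was 6, and 3 with stricter gates and 0 to 8 without each library. In mural cells it was 2, and 1, 8, 9, 8, 0 and 0 to 7 in that order. Calls over all genes moved with the setting too. In capillary cells they were 10 of 12370 tested, 225 with DESeq2 and 1127 of 18407 without a count filter. They were 204 with the replicate block, 20 of 9516 with stricter gates and 99 of 10544 with thinning. In artery cells they were 44, and 31, 311, 135, 44 and 35 in the same order. In vein cells they were 57, and 13 of 1314 with stricter gates. In mural cells they were 14, and 2, 92, 109, 29 and 3 in that order. The replicate numbers of the labels are not shown to pair the libraries, since same-numbered libraries had a correlation of deviations of 0.004, -0.008, -0.090 and 0.028 in the 4 classes. Between capillary and artery cells the number of genes called higher was 4, and 1 with DESeq2, 2 with thinning and 1 to 3 without each library. Those called lower were 2, and 1 without a count filter, 1 with thinning and 1 to 2 without each library. Over all genes, in either direction, 3035 of 10372 were called between capillary and artery cells. With DESeq2 it was 2441, without a count filter 3276 of 19179 and with thinning 1685 of 7227. For capillary and vein cells the 1 call was lost (0) with DESeq2, without a count filter, with thinning and without each library (0 to 0). The counts against mural cells and for the splits stayed within 1.5 times (9 to 9 without each library against mural cells, 9 to 10 for Ifit, 7 to 10 for Cxcl9 or Cxcl10). Of 275 refits of called ratios of single genes, 32 lost the call and 0 changed sign. With 2 libraries per diet, leaving one out assumes that the lone library varies like the other group.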
